A study of Rattus norvegicus with 4 samples.

Results

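RNA of the genes for thyrotropin-releasing hormone (TRH), its processing and degrading enzymes and its receptor was described in rat embryonic stem cells (ESCs) with and without *Thop1* editing. The set holds 8 genes, taken by symbol from a table of 34773 genes: *Trh*, *Pcsk1*, *Pcsk2*, *Cpe*, *Qpct*, *Pam*, *Trhr* and *Trhde*. They were chosen by the fold change of *Trh* between the genotypes, so the values of all 8 members in that comparison are given as a description, without a test. Poly(A) RNA was sequenced from 4 libraries. The control, called WT, is a single DA-5-3GFP library, that is, DA-5-3 rat ESCs with a *Rex1*-GFP reporter of naive pluripotency. The other 3 libraries come from *Thop1*-KO GFP #1, #2 and #3, which carry the same reporter. Each is a subclone picked from DA-5-3GFP cells after Cas9 editing and puromycin selection. *Thop1* encodes thimet oligopeptidase, a peptidase that cleaves several neuropeptides. In the study's methods rat ESCs grew on feeders with PD0325901, CHIR99021 and LIF (2i/LIF), and no treatment separates the genotypes in the labels. DA-5-3 is a diploid line in the methods, but the deposited design text speaks of haploid cells.

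TRH is a tripeptide hormone cut from a precursor protein that holds several copies of it. In the hypothalamus the prohormone convertases PC1/3 (*Pcsk1*) and PC2 (*Pcsk2*) cut the precursor at basic residues, carboxypeptidase E (*Cpe*) trims those residues, glutaminyl cyclase (*Qpct*) closes the amino end into pyroglutamate, and the amidating monooxygenase (*Pam*) amidates the carboxyl end. Released TRH binds a Gq-coupled receptor (*Trhr*) on pituitary cells, where it drives release of thyrotropin and prolactin, and is destroyed by the TRH-degrading ectoenzyme (*Trhde*).

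The promoters of *Trh* and *Cpe* are shown because these 2 members had the highest levels of the set in WT and both had lower counts in every subclone. Each sequence is the 250 bases before the annotated start in RefSeq's GRCr8 assembly, which is not the assembly of the deposited coordinates given further on. *Trh* lies on the minus strand (chr4:126301763-126302012) and *Cpe* on the plus strand (chr16:29796457-29796706). Capitals mark the matches to 6 short motifs searched on both strands. These motifs were the TATA box core TATAA, the cAMP response element TGACGTCA and its core TGACG, the thyroid hormone and CREB element of the *Trh* promoter known as Site 4 (TGACCTCA), and the left (TCAGCACC) and right (GGACAG) parts of RE1, the element bound by the repressor REST. Both parts of RE1 were added to the search after the expression values had been seen.
Trh: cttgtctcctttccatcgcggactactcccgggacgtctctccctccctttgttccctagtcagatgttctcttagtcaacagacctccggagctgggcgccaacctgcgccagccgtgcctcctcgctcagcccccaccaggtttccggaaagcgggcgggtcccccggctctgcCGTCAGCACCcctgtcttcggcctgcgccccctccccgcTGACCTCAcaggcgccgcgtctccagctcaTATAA
Cpe: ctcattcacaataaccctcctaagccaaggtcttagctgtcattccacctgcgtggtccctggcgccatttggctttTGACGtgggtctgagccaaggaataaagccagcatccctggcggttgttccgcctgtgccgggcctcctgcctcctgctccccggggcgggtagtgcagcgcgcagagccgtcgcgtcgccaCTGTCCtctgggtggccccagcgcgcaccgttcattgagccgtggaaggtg

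In the *Trh* promoter, TATAA fills the last 5 bases before the annotated start and occurs in 24.0% of 33469 rat promoter windows of the same kind. Site 4 lies from 35 to 28 bases before the start, and 2.31% of windows hold it. Its letters are those of a known element of the *Trh* promoter, so this match was likely in advance and nothing is read from that share. The core TGACG lies on the opposite strand from 74 to 70 bases before the start, is held by 18.2% of windows, and overlaps the left part of RE1 at 72 to 65 bases, which 1.25% of windows hold. In the *Cpe* promoter the core TGACG lies from 173 to 169 bases before the start, and the right part of RE1, held by 18.2% of windows, lies on the opposite strand at 51 to 46 bases. The full cAMP response element, present in 1.59% of windows, was in neither promoter. A match describes letters only, and binding was not measured here.

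The counts on genes summed to between 15405499 and 17936544 per library. Genes were compared with edgeR's quasi-likelihood test after a filter on low counts, which 15028 genes passed, and a gene was called at a Benjamini-Hochberg adjusted p under 0.05. By that rule 13.8% of genes tested were called, 8.62% as higher and 5.17% as lower in the subclones, and the median log2 fold change of all genes was 0.06. WT has 1 library, so the spread comes from the 3 subclones, and a genotype effect cannot be told apart from a difference of that single culture or library. Nor can it be told apart from the puromycin selection and picking of colonies, which the paper describes for the subclones. *Thop1* itself had 1843, 1635 and 2680 counts in #1, #2 and #3 and 5500 in WT, or 29.7%, 25.0% and 40.3% of the WT level in CPM (counts per library scaled to equal depth), and it was called lower (log2 fold change -1.66, adjusted p = 0.0187, 7.95e-05 to 0.204 over 12 alternative analyses). All 13 entries for naive ESC markers had counts in every library. *Pou5f1*, the core pluripotency factor, had a mean FPKM of 3138 in the subclones and 3347 in WT (adjusted p = 0.778). Feeder-type fibroblast markers summed to 438, 859 and 567 CPM in #1, #2 and #3 against 257 in WT, with *Dcn*, *Lum* and *Thy1* at 0 in every library. In a bulk sample, fewer cells of a type and less RNA per cell cannot be told apart.

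*Trh*, the hormone's own gene (ENSRNOG00000011824, chromosome 4, 124110716 to 124113242, minus strand in the deposited annotation), had 3 counts in #1, 10 in #2 and 10 in #3, against 1039 in WT. In FPKM, the deposited count scaled by gene length and library, these values were 0.128, 0.402 and 0.390 in the subclones and 49.6 in WT. WT therefore stood alone at a moderate level, while all 3 subclones were near the lowest level that the depth can show, 3 counts being taken as the floor. The mean over subclones was 0.306 ± 0.155 FPKM (SD, n = 3). Scaled to equal depth with the TMM method, the WT level was 391 times that of #1 (95% counting interval 133 to 1898), 124 times that of #2 (66.9 to 259) and 126 times that of #3 (68.0 to 263). Over the 3 subclones summed, the ratio was 159 (106 to 252). The intervals of the subclones overlap, but they share the same WT count, and a difference among the subclones was not tested. All intervals cover counting error only. The fitted log2 fold change was -7.30 (SE 0.47), and 9 of the 15028 genes tested had a more negative one. Every SE of a fold change given here is its absolute value divided by the square root of the quasi-likelihood F. It is thus derived from that statistic, and for the members no test is read from it. No other entry of the annotation overlaps *Trh*.

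By FPKM, *Trh* stood in WT above 86.5% of protein-coding genes with a count in that library, and above 11.5%, 21.2% and 20.8% in #1, #2 and #3. Among *Trh* and the 15 tested genes of a list of other peptide precursors, it was first of 16 by FPKM in WT, ahead of *Adm2* (adrenomedullin 2) at 26.4. In the subclones it was in place 15, 12 and 12, and *Pdyn*, the dynorphin precursor, was first there at 24.1, 13.2 and 19.8 FPKM.

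The convertase genes were at or near 0 in all libraries. *Pcsk1* (chromosome 2, 91450162 to 91497091, minus strand) had no count in any of the 4 libraries. *Pcsk2* (chromosome 3, 137618898 to 137925605, plus strand) had 3, 0 and 7 counts in #1, #2 and #3 and 16 in WT, or 0.038, 0, 0.081 and 0.228 FPKM. WT was the highest library, but every value was small. The ratio of WT to the summed subclones was 5.64, with a counting interval of 2.41 to 13.9. *Pcsk2* passed the low-count filter through WT alone, and it overlaps another tested entry of the table, which itself had at most 13 counts in a library, so its reads are uncertain in strand and source.

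*Cpe* (chromosome 16, 26906716 to 27014813, plus strand) was the member with counts that varied least among the subclones. It had 633, 748 and 671 counts in #1, #2 and #3 and 1103 in WT, which is 18.0, 20.0 and 17.5 FPKM in the subclones and 35.1 in WT. The subclones lay close together (18.5 ± 1.37 FPKM, SD, n = 3) and all below WT. The ratio of the summed subclones to WT was 0.527 (counting interval 0.490 to 0.568), the single subclones lay between 0.503 and 0.570, and the fitted log2 fold change was -0.92 (SE 0.25). *Cpe* was first by FPKM among itself and 6 tested relatives in every library, with *Cpxm1*, a carboxypeptidase-like protein of the same family, next in the subclones (11.1, 6.37 and 9.03) and *Qpctl*, the Golgi form of glutaminyl cyclase, next in WT (7.02).

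*Pam* (chromosome 9, 111028575 to 111177602, plus strand) was the member whose level in WT was the lowest of the 4 libraries. It had 54, 88 and 79 counts in #1, #2 and #3 and 40 in WT, or 0.635, 0.976, 0.850 and 0.527 FPKM. WT was below every subclone, though #1 was close to it: the ratio of #1 to WT was 1.20 with a counting interval of 0.780 to 1.85, whereas #2 and #3 had ratios of 1.85 (1.26 to 2.76) and 1.63 (1.10 to 2.45). The fitted log2 fold change was 0.64 (SE 0.50). *Cpe* and *Pam* each overlap 1 small RNA entry, which had no counts. *Qpct* (chromosome 6, 1657331 to 1689559, plus strand) had no count in any library.

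The receptor and the degrading enzyme had no counts either. *Trhr* (chromosome 7, 83113672 to 83153519, plus strand) and *Trhde* (chromosome 7, 57253023 to 57679795, minus strand) were at 0 in all 4 libraries. A count of 0 allows up to 3 counts, or 0.179, 0.170, 0.167 and 0.202 CPM in #1, #2, #3 and WT. *Trh* in #1 was at that limit. Of the 8 members 4 were at 0 in every library (50%), beside 28.9% of the 22250 protein-coding genes and 42.8% of all entries. *Lnpep*, a broadly expressed peptidase picked here after its value was seen, was also at 0 in this table, so a 0 is a statement about these counts.

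**Figure D1:**
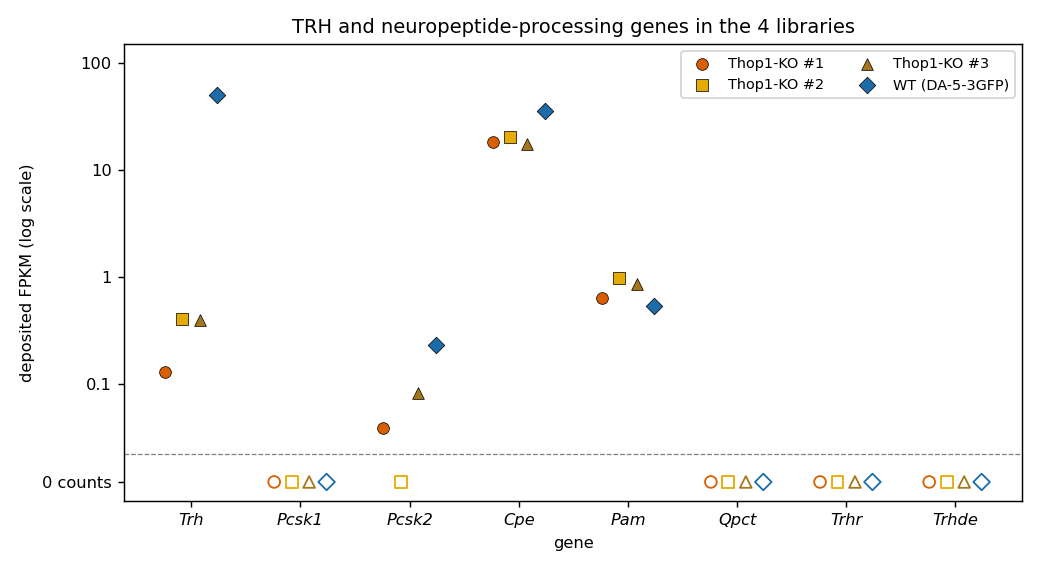
Deposited FPKM (log scale) of the 8 members in the 4 libraries, 1 symbol per library, with open symbols under the dashed line for genes with no count. *Trh* stands at 49.6 in WT and between 0.128 and 0.402 in the subclones, *Cpe* at 35.1 against 17.5 to 20.0, and *Pcsk1*, *Qpct*, *Trhr* and *Trhde* have no count.

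Of the 8 members, 4 had counts and passed the low-count filter, *Trh* through WT and #2 only and *Pcsk2* through WT only. WT lay outside the range of the subclones for all 4 members with counts, as it did for 75.7% of genes tested. It was above the range for *Trh*, *Cpe* and *Pcsk2*, beside 37.6% of genes tested, and below it for *Pam*, beside 38.1%. The same contrast chose the members, so nothing is read from these counts.

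**Figure D2:**
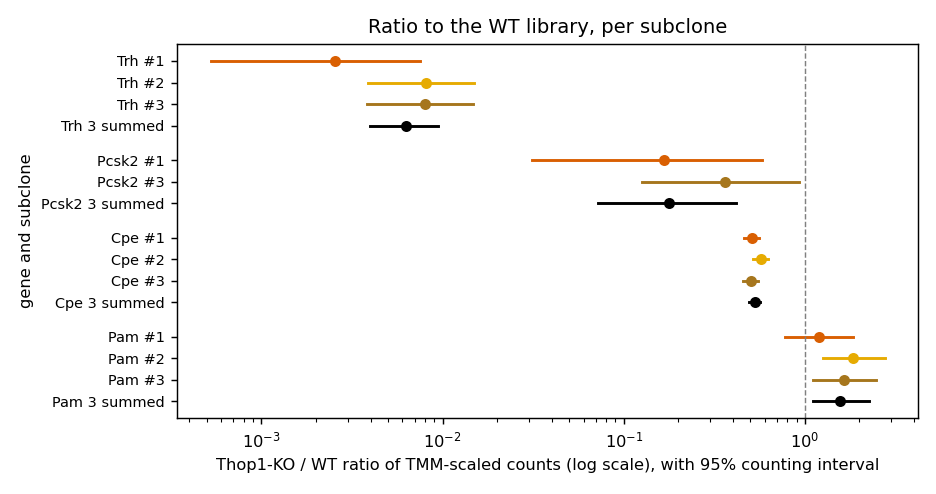
Ratio of TMM-scaled counts of each subclone to WT on a log scale (dashed line at 1) for the members with counts, with 95% counting intervals and the 3 subclones summed in black. *Trh* lies between 0.00256 and 0.00809, *Cpe* between 0.503 and 0.570, and *Pam* between 1.20 and 1.85; *Pcsk2* had no count in #2 and has no ratio there.

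The genes around TRH were described with 8 pathway lists, of which 86 entries were tested. Of these, 13 were called higher and 3 lower (18.6%), beside 13.8% of all genes, and their median log2 fold change was 0.43 beside 0.06. The number called depended on #2 and #3: it was 16 in all, 35 without #2 and 3 without #3. The number called among all genes likewise rose without #2 and fell without #3, so this is not particular to the lists.

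Among other precursors of neuropeptides and peptide hormones, 32 of 61 entries had no count in any library, among them *Crh*, *Avp*, *Oxt* and *Sst*, which like *Trh* are hypothalamic peptides. Of 15 tested, 1 was called lower and none higher (6.67%, beside 13.8% of all genes), with 4 at an unadjusted p under 0.05. The median log2 fold change was -0.23. The called gene was *Pomc*, the precursor of ACTH and melanocortins, with 27, 23 and 20 counts against 79 in WT (log2 fold change -1.98, SE 0.50, adjusted p = 0.0452, 0.0127 to 0.192 over the alternatives, the highest without #3). *Pdyn* had 992, 576 and 889 counts against 700 (log2 fold change 0.00, adjusted p = 0.999). *Adm2* had 120, 188 and 254 against 408 (log2 fold change -1.37, adjusted p = 0.0698), and *Gip*, an incretin precursor, 63, 63 and 51 against 59 (log2 fold change -0.23, adjusted p = 0.747). Of the precursors with the highest FPKM, WT was thus above every subclone by FPKM for *Adm2* and, narrowly, for *Gip*, and within their range for *Pdyn*. Over all 15 tested, WT was above every subclone by CPM for 7 and below every subclone for 3, beside 37.6% and 38.1% of all genes tested.

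The median log2 fold change of 11 tested genes for granins and dense core granule proteins was 0.44, beside 0.06 over all genes. Of these 11, 2 rose and none fell (18.2%, beside 13.8% of all genes). By value the list went both ways. WT was below every subclone for 5 of the 11 and above every subclone for 4, beside 38.1% and 37.6% of all genes tested. The 2 genes called were *Hid1* and *Rab3a*. *Hid1*, which acts in dense core vesicle formation, was at 33.1, 25.9 and 23.4 CPM against 9.56 (adjusted p = 0.0412). *Rab3a*, a vesicle-bound GTPase, was at 6.20, 3.56 and 7.07 against 0.740 (adjusted p = 0.0360). Without #3 these adjusted p were 0.127 and 0.129, and without #1 that of *Hid1* was 0.0556. Over the alternatives they ran from 0.00301 to 0.211 and from 0.000836 to 0.263. *Scg2*, a granin, had a log2 fold change of 0.48 (adjusted p = 0.511) and *Vamp2*, a vesicle fusion protein, one of -0.84 (adjusted p = 0.178).

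None of the 5 tested convertases outside the set was called, beside 13.8% of all genes, and 2 had an unadjusted p under 0.05. *Furin*, the convertase of the constitutive secretory pathway, had 67.2 FPKM on average in the subclones against 32.2 in WT (log2 fold change 1.07, adjusted p = 0.0975, and 0.00048 without #2; 0.00048 to 0.497 over the alternatives). *Pcsk6*, another constitutive convertase, was at 24.7 against 24.5 FPKM (log2 fold change 0.02, adjusted p = 0.969). *Mbtps1*, the site-1 protease, was at 24.3 against 18.2 FPKM (log2 fold change 0.42, adjusted p = 0.285). *Furin*, *Pcsk6* and *Mbtps1*, named for the highest mean FPKM of the 5, were thus counted well above *Pcsk1* and *Pcsk2* in all libraries, per length. This did not hold for every convertase tested: in WT *Pcsk4* was at 0.0544 FPKM, below *Pcsk2* at 0.228. Of 6 tested relatives of *Cpe* and *Qpct*, none was called and 4 had an unadjusted p under 0.05. The median log2 fold change was 1.20, beside 0.06 over all genes. *Cpxm1* was at 8.82 against 3.00 FPKM (adjusted p = 0.0598, and 0.00187 without #2; 0.00187 to 0.309 over the alternatives), *Cpxm2* at 5.40 against 3.02 (adjusted p = 0.194) and *Qpctl* at 4.01 against 7.02 (log2 fold change -0.81, adjusted p = 0.133).

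Of 20 tested peptide-degrading peptidases, 4 rose and 1 fell (25%, beside 13.8% of all genes), with a median log2 fold change of 0.24. *Pgpep1*, which removes amino-terminal pyroglutamate and can act on TRH inside cells, rose from 120 counts in WT to 816, 537 and 731 in #1, #2 and #3 (log2 fold change 2.30, SE 0.40, adjusted p = 0.0188). All 3 subclones were far above WT for this gene, with #2 the lowest of them. The other genes that rose were *Anpep*, aminopeptidase N (log2 fold change 2.29, adjusted p = 0.0389), *Prcp*, a lysosomal prolylcarboxypeptidase (224, 235 and 262 counts against 72, adjusted p = 0.0428) and *Dpp3*, a dipeptidyl peptidase (1.17, adjusted p = 0.0303). *Tpp2*, tripeptidyl peptidase 2, fell by 1.33 on the log2 scale (adjusted p = 0.0280). Without #3 none of the 5 passed, with adjusted p of 0.0630 for *Pgpep1*, 0.110 for *Anpep*, 0.194 for *Prcp*, 0.114 for *Dpp3* and 0.106 for *Tpp2*, and without #1 that of *Prcp* was 0.0511. Over the alternatives the adjusted p ran up to 0.159, 0.325, 0.194, 0.123 and 0.145 in that order, and down to between 1.35e-06 and 0.0065. By FPKM averaged over the 4 libraries the highest of the peptidases named were *Xpnpep1*, at 185 in the subclones and 129 in WT (adjusted p = 0.139), *Dpp7*, at 156 and 88.6 (adjusted p = 0.171, and 0.00177 without #2; 0.00177 to 0.691 over the alternatives), and *Dpp3*.

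Although *Trhr* had no count, general components of its signalling route were expressed. The median log2 fold change of the 9 tested was 1.53, beside 0.06 over all genes. Of these 9, 3 rose and none fell (33.3%, beside 13.8% of all genes). They were *Itpr3*, an inositol trisphosphate receptor (5.44 FPKM in WT and a mean of 23.6 in the subclones, adjusted p = 0.0158), *Plcb3*, a phospholipase C beta (35.6 and 104, adjusted p = 0.0222), and *Gna11*, a Gq-class alpha subunit (14.2 and 40.7, adjusted p = 0.0211). Without #3 the adjusted p were 0.0483, 0.0762 and 0.106, and over the alternatives they reached at most 0.164, 0.173 and 0.106 and at least 1.61e-07, 9.78e-05 and 0.00024. *Grk2*, a receptor kinase, was at 34.0 against 20.9 FPKM (adjusted p = 0.136, and 0.0150 without #2; 0.0150 to 0.393 over the alternatives). These proteins serve many receptors.

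Of 13 tested genes of the thyroid axis and of thyroid hormone action, 3 rose and 1 fell (30.8%, beside 13.8% of all genes). The median log2 fold change was 0.06. *Rxra*, the retinoid X receptor alpha that pairs with thyroid hormone receptors, rose by 2.23 (adjusted p = 0.0273), *Thra*, thyroid hormone receptor alpha, by 1.91 (adjusted p = 0.0219), and *Ncoa2*, a nuclear receptor coactivator, by 1.75 on the log2 scale (adjusted p = 0.0274). *Rxrg*, the gamma form of the retinoid X receptor, had 18, 34 and 29 counts against 190 in WT and fell by 3.05 (adjusted p = 0.0115; 6.16e-05 to 0.103 over the alternatives, 0.0435 without #3). Without #3 the adjusted p of *Rxra*, *Thra* and *Ncoa2* were 0.0938, 0.0944 and 0.129, and the lowest and highest over the alternatives were 0.00046 and 0.156, 0.00017 and 0.0944, and 0.000645 and 0.129. *Rxrb*, the beta form, had a log2 fold change of -0.09 (adjusted p = 0.839), and 0.04 without #2. *Cga*, the alpha subunit that thyrotropin shares with other glycoprotein hormones, was at 13.3 FPKM in the subclones and 26.3 in WT (adjusted p = 0.118, and 0.0308 without #2; 0.0308 to 0.391 over the alternatives), while *Tshb*, the subunit specific to thyrotropin, had no count.

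Of 13 factors linked to *Trh*, *Sim1*, *Otp*, *Nhlh2* and *Mc4r* had no count in any library. The first 3 of these are transcription factors of hypothalamic neurons, and *Mc4r* is a melanocortin receptor. Of 7 tested, 1 was called (14.3%, beside 13.8% of all genes). *Ep300*, a coactivator of CREB, rose from 8 counts in WT to 173, 187 and 165 (log2 fold change 4.20, SE 0.51, adjusted p = 0.00803, 1.22e-07 to 0.0598 over the alternatives). The 3 subclones lay close together for this gene. *Atf1*, a CREB-family factor, had a log2 fold change of 0.36 (adjusted p = 0.474) and *Crebbp*, the CREB-binding protein, one of -0.87 (adjusted p = 0.190). The list median was 1.39, or 1.16 with *Pou3f2*, which had no count in WT, at its lower bound.

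**Figure D3:**
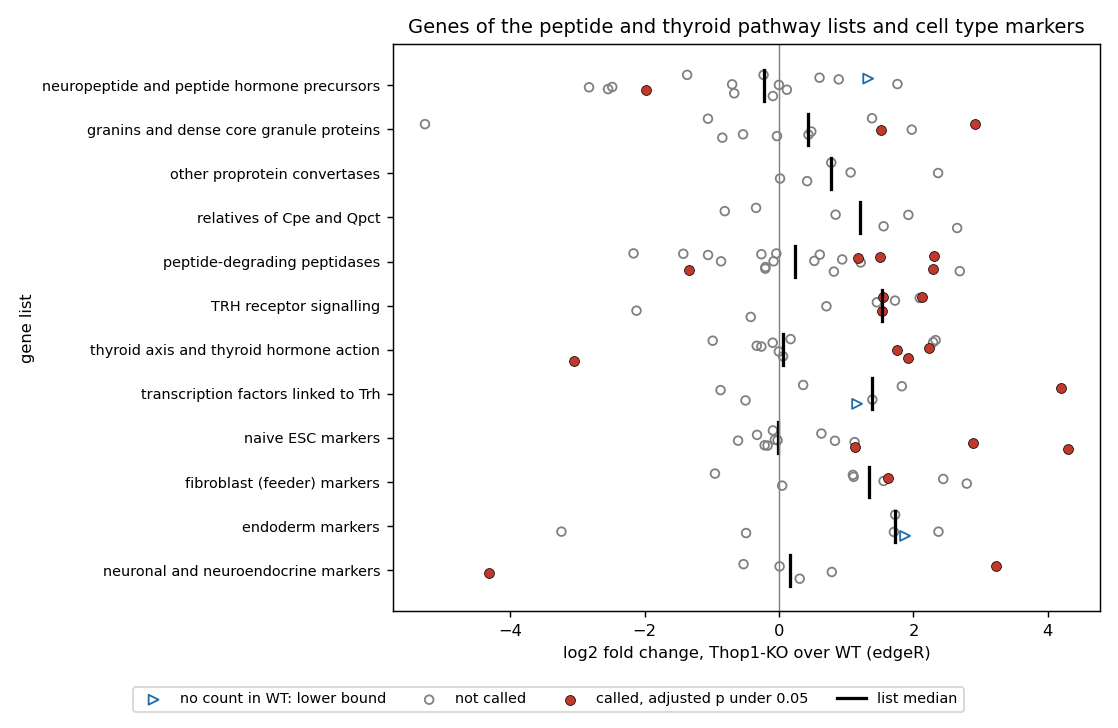
Fitted log2 fold changes of the tested genes of the 8 pathway lists and the 4 marker lists, with genes called at an adjusted p under 0.05 filled in red, list medians of fitted values as bars, and triangles at the lower bound for genes with no count in WT. The median is 1.53 for TRH receptor signalling and -0.23 for other precursors, and *Esrrb* (4.30), *Ep300* (4.20) and *Nes* (-4.31) lie farthest from 0 among genes called.

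Markers of other cells were counted beside these values. Of 12 neuronal and neuroendocrine markers, 3 (*Neurod1*, *Neurog2* and *Pax6*) had no count in any library, and the summed level was 220, 349 and 317 CPM in #1, #2 and #3 against 322 in WT. WT thus lay within the range of the subclones. This sum includes *Rest*, a repressor of neuronal genes. Without *Rest* the sum was 124, 293 and 224 against 313, all 3 subclones below WT. Most of that sum was *Tubb3*, at 122, 289 and 218 CPM against 302. *Dcx*, *Map2* and *Elavl3*, none of them called, had log2 fold changes of 0.31, 0.79 and 0.01. The highest of these markers was *Tubb3*, a neuronal tubulin (log2 fold change -0.53, adjusted p = 0.414, and 0.0308 without #2; 0.0308 to 1.00 over the alternatives). Of 6 tested, 1 rose and 1 fell (33.3%, beside 13.8% of all genes). *Nes*, the intermediate filament nestin, had 6, 13 and 3 counts against 126 (log2 fold change -4.31, adjusted p = 0.0147, 4.40e-05 to 0.0503 over the alternatives). *Rest*, which encodes the repressor that binds RE1 elements, had 1610, 993 and 1674 counts against 129 (log2 fold change 3.23, SE 0.45, adjusted p = 0.0107, 7.16e-13 to 0.149 over the alternatives). WT was thus below all 3 subclones for *Rest*, as it was for 38.1% of genes tested, and above them for *Trh*. These comparisons share the same WT library, and *Trh* was chosen by its fold change. Nothing is read from the opposite directions, and the relation of *Trh* and *Rest* was not tested.

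Of 13 naive ESC marker entries tested, 3 rose and none fell (23.1%, beside 13.8% of all genes). *Esrrb*, a nuclear receptor of the naive network, had 5537, 5064 and 5894 counts against 237 (adjusted p = 0.00678, at most 0.0293 over the alternatives, the lowest being 1.98e-35), *Tfcp2l1*, another naive factor, had 3881, 4485 and 5022 against 512 (adjusted p = 0.00678, 1.31e-16 to 0.0293), and *Dppa4* rose by 1.13 on the log2 scale (adjusted p = 0.0348, 0.00185 to 0.145, the highest without #3). *Klf2* had a log2 fold change of -0.17 (adjusted p = 0.662) and *Dppa3* (ENSRNOG00000022950) one of 1.12 (adjusted p = 0.0623, and 0.00654 without #2; 0.00654 to 0.391 over the alternatives). A second entry of that symbol (ENSRNOG00000031161) went the other way in value, with 79, 100 and 80 counts against 112 (log2 fold change -0.61, adjusted p = 0.303).

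Of 8 tested fibroblast markers, 1 rose (12.5%, beside 13.8% of all genes called). It was *Col5a1*, a collagen (log2 fold change 1.63, adjusted p = 0.0399, and 0.102 without #3; 0.000419 to 0.296 over the alternatives). *Col1a1* had a log2 fold change of 1.11 (adjusted p = 0.0921, and 0.0332 without #1 and 0.00864 without #2; 0.00864 to 0.473 over the alternatives). *Col3a1* had one of 2.79 (adjusted p = 0.0863, and 0.0084 without #1 and 0.00454 without #2; 0.00454 to 0.611 over the alternatives). None of 6 tested endoderm markers was called, with 3 at an unadjusted p under 0.05. *Hhex* had a log2 fold change of -0.49 (adjusted p = 0.226), *Sox17* one of 1.73 (adjusted p = 0.121) and *Gata6* one of 1.71 (adjusted p = 0.283). The part of these markers in the difference of *Trh* was not tested.

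The genes most like *Trh* were taken as those with the smallest Euclidean distance between log2 CPM over the 4 libraries, each gene centred on its mean. They were *Pdcd5* (distance 0.94), *Haus1* (1.57), *Ecel1* (2.01), *Acta1* (2.27) and *Polr2h* (2.36). *Pdcd5*, named programmed cell death 5, had 5, 7 and 11 counts in #1, #2 and #3 and 621 in WT. *Haus1*, a subunit of the augmin complex of the spindle, had 4, 6 and 6 against 273. *Ecel1*, a membrane metallopeptidase related to endothelin-converting enzymes and expressed in neurons, had 0, 29 and 7 against 605. *Acta1*, skeletal muscle actin, had 0, 1 and 4 against 67, and *Polr2h*, a subunit shared by the RNA polymerases, 7, 13 and 9 against 215. In each case WT alone was high, and with 4 libraries a profile of this kind rests on that 1 library. None of these genes lies on the chromosome of *Trh* in the deposited annotation.

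**Figure D4:**
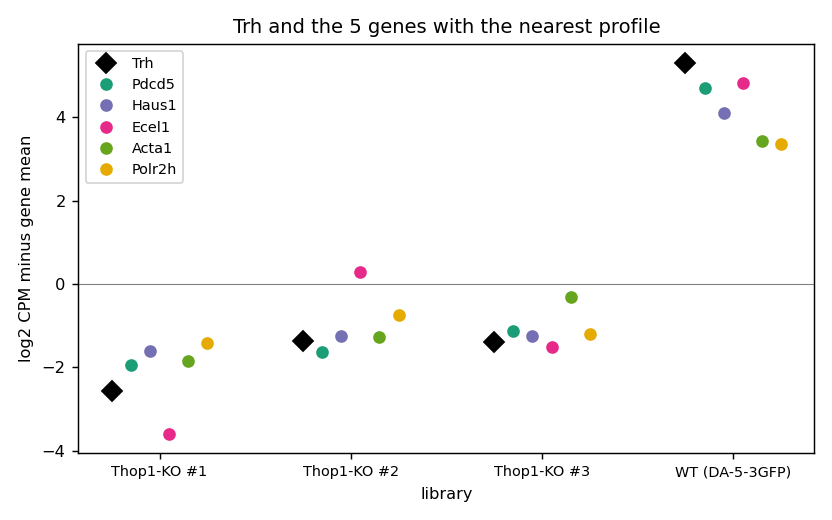
Log2 CPM of *Trh* (diamonds) and the 5 genes with the nearest profile (circles) in the 4 libraries, each minus its own mean. All 6 genes are highest in WT, and *Ecel1* varies most among the subclones, with 0, 29 and 7 counts.

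The neighbourhood of *Trh* held 18 other entries within 1 Mb on either side, of which 13 were tested. Of these 13, 2 were called higher and 1 lower, beside 8.62% and 5.17% of all genes. The median log2 fold change was 0.65, beside 0.06 over all genes. The nearest tested gene below its start coordinate, *Rbsn*, 29810 bases away, encodes an endosomal protein and had 616, 466 and 629 counts against 173 in WT (log2 fold change 1.49, SE 0.35, adjusted p = 0.0392). That value was 0.0525 without #1 and 0.162 without #3, in a range of 0.00132 to 0.210 over the alternatives. *Prickle2*, 124925 bases above the end coordinate, had 4, 11 and 3 counts against 5 (log2 fold change 0.03, adjusted p = 0.992). The other called genes, named after their values were seen, were *Slc6a6*, the taurine transporter, with a log2 fold change of 3.87 (adjusted p = 0.00678, at most 0.0293 over the alternatives, the lowest being 5.23e-15), and *Lsm3*, an RNA-binding subunit, with -1.28 (adjusted p = 0.0270, and 0.122 without #3; 0.00058 to 0.198 over the alternatives). *Trh* had the lowest log2 fold change of the tested genes of this region, and both genes nearest to it had higher ones. *Trh* was chosen by that fold change, so nothing is read from this order.

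**Figure D5:**
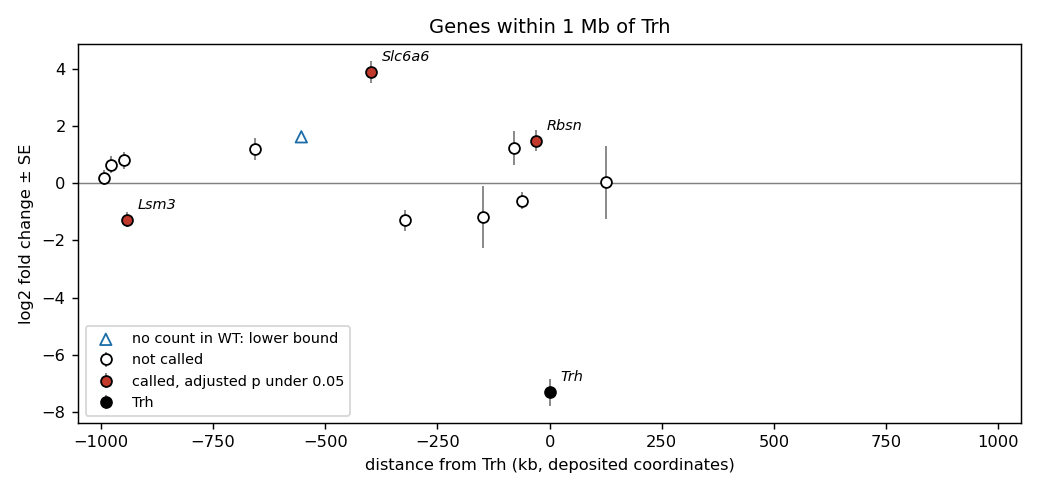
Log2 fold change ± SE of the tested genes by distance from *Trh* in kilobases, with *Trh* in black, called genes in red and a triangle at the lower bound for the gene with no count in WT. The SE is derived from the F of the quasi-likelihood fit. *Trh* is at -7.30, *Slc6a6* at 3.87, *Rbsn* at 1.49 and *Lsm3* at -1.28.

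The nearest tested genes of the other members were also read, 14 in all, and 2 were called, beside 13.8% of all genes. *Emc2*, 736563 bases below *Trhr*, had a log2 fold change of -1.75 (adjusted p = 0.0200, and 0.0875 without #3; 0.000937 to 0.0875 over the alternatives), and *Snrpb2*, 471323 bases below *Pcsk2*, one of -1.33 (adjusted p = 0.0246, and 0.118 without #3; 0.000882 to 0.118 over the alternatives). Beside *Cpe*, *Msmo1* had a log2 fold change of -0.56 (adjusted p = 0.346, and 0.00758 without #2; 0.00758 to 0.922 over the alternatives) and *Tll1* one of -1.67 (adjusted p = 0.469). Beside *Pam*, *Fbxl17* had one of 1.45 (adjusted p = 0.0827, and 0.0336 without #2; 0.0336 to 0.305 over the alternatives) and *Gin1* one of 0.03 (adjusted p = 0.970). The other 8 neighbours were not called and had log2 fold changes between -0.69 and 2.53.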

How the data were processed

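Poly(A) RNA-seq of 3 *Thop1*-KO GFP subclones and 1 DA-5-3GFP (WT) library was analysed. The authors cleaned the reads with the FASTX toolkit and deposited raw counts per gene and FPKM values. The submitters' processing notes name HISAT2 2.0.5 and featureCounts 1.5.0-p3. Build, annotation version and strand setting are not given in the sources used here. Each deposited FPKM is the count over the gene length, scaled within a library by a constant proportional to DESeq2's size factor.

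Counts were fitted with edgeR 4.0.16 in R 4.3.3: filterByExpr with a minimum count of 10, TMM, the two-sided quasi-likelihood test of subclones against WT, and Benjamini-Hochberg adjustment over all genes tested. The SE of a log2 fold change was derived as its absolute value over the square root of the quasi-likelihood F. Log2 CPM used a prior count of 2. Counting intervals of ratios are exact conditional binomial (Clopper-Pearson) ones at 95%. Depth was 15405499 to 17936544 counts per library. The 3 subclones are separate clones of 1 line, so p-values measure the spread between these libraries only. No pair of libraries agreed within sampling noise (chi-square per degree of freedom 22.4 to 184). The members, gene lists and tests were chosen with earlier results of these data known. Named genes were the members, *Thop1*, up to 3 called in each direction and 3 with the highest mean FPKM per list, the 5 nearest profiles to *Trh* and each member's nearest tested neighbours; 1 gene that this rule names is not reported here. *Cort*, *Nms*, *Pthlh*, *Apela*, *Insm1*, *Trhr2*, *Zfp42*, *Dppa2* and *Col1a2* were not analysed here. RefSeq promoter windows (GRCr8) matched 6 of the 8 members by symbol.

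The 12 alternatives were edgeR with upper quartile scaling, with DESeq2 size factors or with library size only, no filter, at least 10 counts in every library, DESeq2 1.42.0, limma 3.58.1 on log2(FPKM + 1), with and without a minimum FPKM of 1 in at least 1 library, and on log2(FPKM + 0.1) with it, and leaving out each subclone. The test was checked on simulated data. Tables and figures used Python 3.11.15, pandas 2.3.3, scipy 1.17.1 and matplotlib 3.10.9.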

Additional observations from a re-analysis of the deposited data

How the results depend on the processing

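The number of genes called was 2072 and lay between 1770 and 3006 under the other scalings in edgeR, both count filters and DESeq2. It was 1250 with limma on log2(FPKM + 1), 1135 with log2(FPKM + 0.1) and 823 without the FPKM filter, and between 457 and 5572 when 1 subclone was left out (457 without #3, 5572 without #2). Of the pathway list genes, 16 were called, with 9, 7 and 6 under the same limma settings and 3 to 35 when 1 subclone was left out. The log2 fold change of *Trh* was -7.30, -5.28 with limma on log2(FPKM + 1) with or without the filter, where the pseudocount exceeds the subclones' FPKM, and -7.52 to -6.93 when 1 subclone was left out. WT lay outside the subclones' range for 4 members, and for 2 with limma on filtered log2(FPKM + 1) or log2(FPKM + 0.1), where fewer members are tested; leaving out a subclone gave 4 to 4. The log2 fold change of *Cpe* ranged from -1.02 to -0.85, of *Pam* from 0.25 to 0.81 and of *Pcsk2* from -3.50 to -0.24. Of 22 called list genes named, 2 (*Esrrb* and *Tfcp2l1*) were called under every alternative and 20 were not under at least 1; of 28 not called, 10 were called under at least 1, and no called gene changed direction. The median log2 fold change of all genes was 0.06, and between -0.04 and 0.19 under the alternatives. No paired analysis was possible because WT has 1 library and no replicate number. The depth limits *Pcsk1*, *Qpct*, *Trhr* and *Trhde* to at most 3 counts per library, and no further WT library was analysed here.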
